A study of Homo sapiens with 24 samples.

Results

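The expression of 10 genes encoding activin subunits, follistatins, bone morphogenetic protein (BMP) ligands and BMP antagonists was examined in the hepatocellular carcinoma (HCC) cell lines PLC/PRF/5 and SNU-449. The genes are *INHBA*, *INHBB*, *INHBE*, *FST*, *FSTL3*, *BMP2*, *BMP4*, *BMP6*, *GREM1* and *NOG*. They were taken by family, through the RefSeq accession of each probe, out of 31204 genes named on the array. The rule for taking them used no expression value, but the family was chosen with earlier results of these data known. The shares of all genes given below are therefore a background for the counts and not a test of the list. RNA was measured on 24 one-colour Agilent SurePrint G3 arrays, 12 for each line. The 4 treatments of a line, in 3 separate cultures apiece, were no agent (control), recombinant human TGFβ1 (1 ng/mL), galunisertib (LY2157299, 10 µM) and the combination of both. Treatment lasted 16 h and followed overnight serum starvation, which all groups, controls included, shared. Both lines are established human tumour lines, so the data describe tumour cells grown without the stroma of a liver. Galunisertib is a small-molecule inhibitor of the kinase of the type I TGFβ receptor. The study states that it also inhibits the type I receptors of activin and nodal. The share of each receptor in the changes below was not tested.

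Activins and BMPs belong to the same family of secreted dimers as TGFβ. Activins signal through their own receptors to SMAD2 and SMAD3, the mediators that TGFβ also uses, whereas BMPs signal to SMAD1, SMAD5 and SMAD9. Both kinds of ligand are held in check outside the cell: follistatins bind activins, and gremlin and noggin bind BMPs. In liver, activin A restrains hepatocyte growth, and BMP6 controls iron balance by inducing hepcidin.

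All levels below are log2 values of the background-subtracted signal divided by the 75th percentile of the array, so that 0 is the 75th percentile itself. The 75th percentile lay between 145 and 262 intensity units, and 41.6 to 49.6% of probes were well above background. Dimmer values were set to a floor at -4.13 on this scale, which is 5.7% of the 75th percentile. Levels of different probes are not comparable with each other. *FSTL3*, *BMP4* and *BMP6* were well above background on all 24 arrays. The arrays lay on 3 slides, and each slide held 1 culture of each of the 8 groups, so that the replicate number is also the slide. On every slide the arrays without TGFβ were in the first row and those with TGFβ in the second, so the row cannot be told apart from TGFβ. PLC/PRF/5 lay in column 1 without galunisertib and column 2 with it, and SNU-449 in columns 3 and 4. The column therefore cannot be told apart from the line or from galunisertib. Hepatocyte genes matched the labels of PLC/PRF/5, where 6 of 6 were well above background on all 12 arrays. In SNU-449, 4 of the 6 (*SERPINA1*, *AFP*, *TTR* and *APOA1*) were well above background on all 12 arrays, while *ALB* and *APOB* were not in untreated cells. The mean control levels of those 4 were low in SNU-449, at -3, -1.3, -3.08 and -2.67. In PLC/PRF/5 they were 8.78, 3.85, 4.43 and 4.82. Of 3 endothelial genes, *VWF* and *CDH5* were well above background on all control arrays of both lines (mean levels -3.26 to -2.59) and *PECAM1* on none. Of 4 genes of fibroblasts or stellate cells, *DES* had mean control levels of 0.78 in PLC/PRF/5 and 0.45 in SNU-449, and no control array read *PDGFRA*, *DCN* or *LUM* well above background. On all 12 arrays of the line, 4 of 4 epithelial genes were well above background in PLC/PRF/5 and 3 in SNU-449. For 5 mesenchymal genes the counts were 4 and 5. Of 3 leukocyte genes, *PTPRC* was so in PLC/PRF/5 (mean control level -2.91) and none in SNU-449. The part of these genes in the results was not tested. The TGFβ target *SMAD7* rose with TGFβ in SNU-449 by 0.65 ± 0.13 (SE, adjusted p = 0.0112) and in PLC/PRF/5 by 0.80 ± 0.11 (adjusted p = 0.000892). *SKIL*, another TGFβ target, rose in PLC/PRF/5 by 1.63 ± 0.11 (adjusted p = 8.51e-06), whereas its change of 0.93 ± 0.30 in SNU-449 did not pass (adjusted p = 0.0829). *PMEPA1*, also a TGFβ target, rose in both lines (adjusted p = 0.0387 in SNU-449 and 0.000718 in PLC/PRF/5).

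In SNU-449, TGFβ raised *INHBA*, *NOG*, *FSTL3* and *FST* and lowered *BMP4*. Thus 5 of the 8 genes tested passed an adjusted p of 0.05, where 10.5% of all genes did. Galunisertib alone moved *INHBA*, *NOG*, *FSTL3*, *GREM1* and *BMP4*, each opposite to the sign it had under TGFβ (4 lower and 1 higher of 8 tested, against 7.47% of all genes called). After scaling to the array median, 2 lower and 1 higher passed for galunisertib, and by the methods' t-test, run without the random variance model that the methods pair with it, the galunisertib changes of *INHBA*, *FSTL3*, *GREM1* and *BMP4* did not pass, with adjusted p from 0.0919 to 0.208 in place of limma's. By that t-test the galunisertib change of *FST* (adjusted p = 0.0643) and that of *BMP4* when TGFβ was added to galunisertib (adjusted p = 0.171), both in PLC/PRF/5, did not pass either, and the TGFβ change of *FSTL3* in SNU-449 lay at the threshold (adjusted p = 0.05) without passing. In PLC/PRF/5, TGFβ raised *INHBE*, *FSTL3*, *BMP6* and *FST*, 4 of 7 genes tested, where 13.5% of all genes were called and 6.25% were higher. With quantile normalization *BMP2* was called as well, giving 4 higher and 1 lower. Galunisertib alone raised *BMP6* and lowered *FST* in this line, 2 of 7 tested against a background of 5.43%, and neither passed after scaling to the array median. The study's figure legends give limits of a fold above 2 and a P below 0.001, taken here as unadjusted. With them TGFβ changed 5 of the 8 genes in SNU-449 (2.33% of all genes) and galunisertib 3 (1.14%). In PLC/PRF/5 TGFβ changed 1 of 7 (1.10%) and galunisertib 0 (0.342%). By the same limits 2 of 7 genes changed in PLC/PRF/5 when galunisertib was added to TGFβ (3.09%), 0 when TGFβ was added to galunisertib (0.288%) and 1 in the difference between the TGFβ changes (1.19%), and the galunisertib change differed between the lines for 3 of 10 (1.55%). The comparisons with control share their control arrays within each line. Leaving out any 1 replicate left 148 to 286 of all genes called for galunisertib in SNU-449 and 2 to 50 in PLC/PRF/5. Scaling to the array median left 238 and 88, against 1200 and 905 in the reported fit. With 41.6 to 49.6% of probes well above background, the array median is the signal of a dim probe (9.07 to 17.8 units). How far noise in that signal accounts for calls lost under this scaling, here and below, was not tested.

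**Figure D1:**
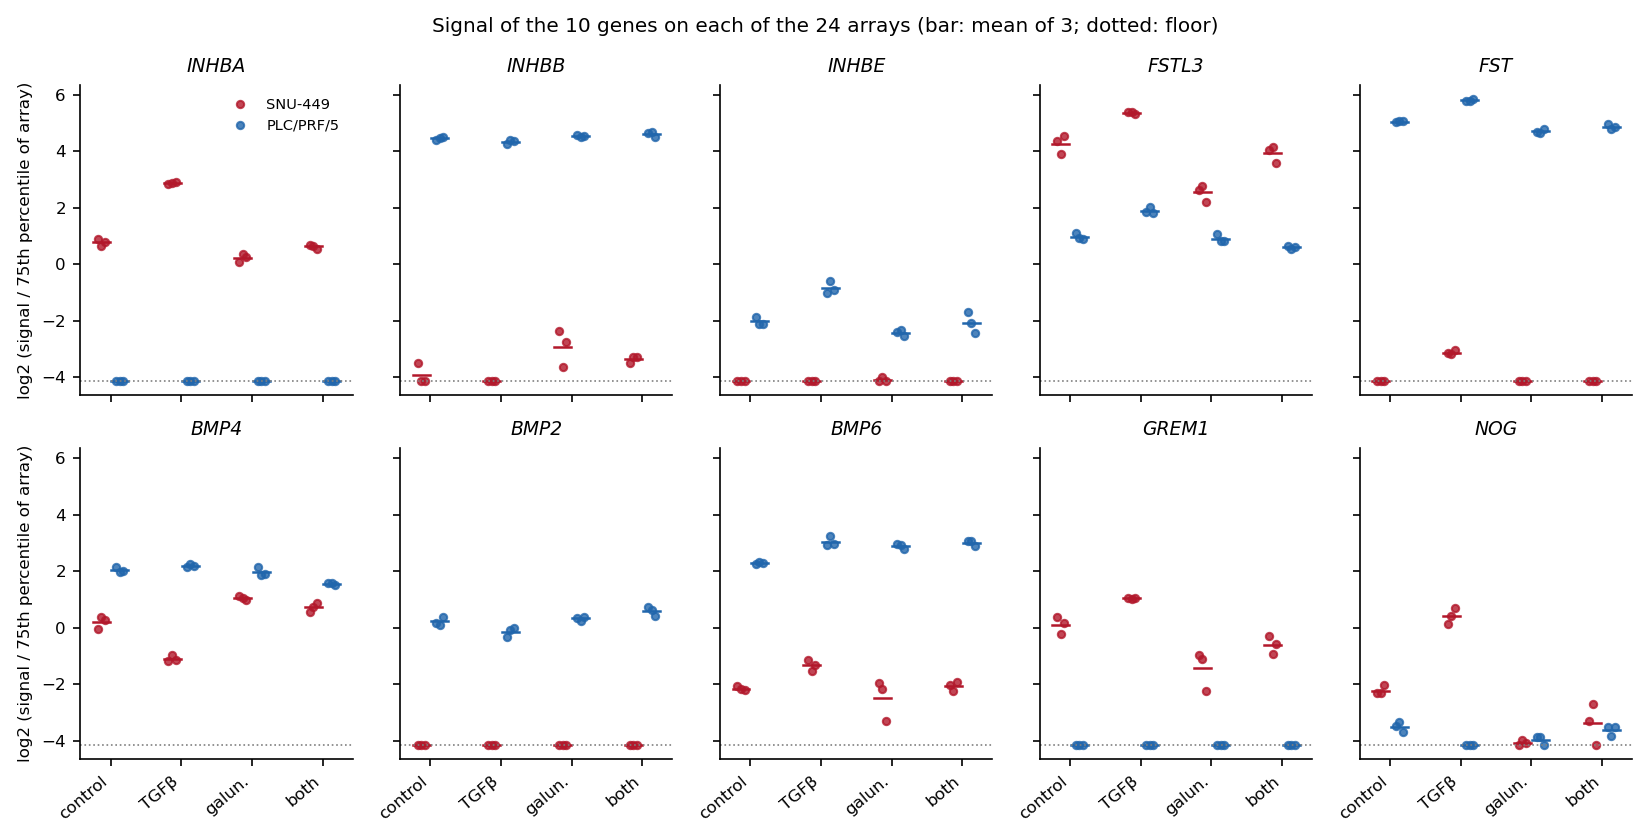
Log2 signal relative to the 75th percentile of the array (y axis) for each of the 10 genes in the 4 treatments (x axis), with 1 point per array (SNU-449 red, PLC/PRF/5 blue), the mean of 3 as a bar and the floor at -4.13 as a dotted line. *INHBA* and *GREM1* lie at the floor on all PLC/PRF/5 arrays and *BMP2* on all SNU-449 arrays, while *FST* and *INHBB* lie high in PLC/PRF/5 and at or near the floor in SNU-449. *GREM1* is shown by the brighter of its probes.

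The untreated lines differed in all 10 genes, of which PLC/PRF/5 had the higher level for 6 and SNU-449 for 4, but 68.6% of all genes tested differed between the lines as well. Where no array of a line gave a signal well above background, only a bound of the fold could be given, taken as the mean of the brighter group over the weakest signal well above background on each dim array. The PLC/PRF/5 level was at least 579-fold higher for follistatin (*FST*), at least 20.5-fold for *BMP2* and at least 4.31-fold for *INHBE*. *INHBA* was at least 27.1-fold higher in SNU-449 and *GREM1* at least 16.9-fold. Adjusted p for these 5 genes lay between 1.94e-26 and 3.74e-11. The control arrays of the dim line were all set to the floor and so did not vary. These p-values therefore do not measure the spread between cultures in that line. *INHBB* was higher in PLC/PRF/5 by 8.37 ± 0.21 (SE) on the log2 scale (adjusted p = 7.14e-18), with 1 of 3 SNU-449 control arrays well above background. *BMP6* was higher in PLC/PRF/5 by 4.43 ± 0.21 (adjusted p = 3.77e-13) and *BMP4* by 1.86 ± 0.11 (adjusted p = 5.25e-12). *FSTL3* was 9.88-fold higher in SNU-449 (log2 difference of PLC/PRF/5 minus SNU-449 -3.30 ± 0.16, adjusted p = 4.15e-13). *NOG* was higher in SNU-449, with a log2 difference of -1.29 ± 0.24 (adjusted p = 7.31e-05), and 2 of 3 PLC/PRF/5 control arrays were well above background. In the normalized table of the authors *NOG* did not pass (log2 difference -1.35, adjusted p = 0.0626).

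Among the activin subunits, *INHBA* encodes the βA chain that pairs with itself to form activin A. Its probe stands on 10 spots of each array, which were averaged. In SNU-449 it read 0.91, 0.66 and 0.78 in control cells, 2.84, 2.88 and 2.91 with TGFβ, 0.08, 0.35 and 0.27 with galunisertib, and 0.70, 0.65 and 0.54 with both. The TGFβ arrays stood far above the other 9, the galunisertib arrays were the lowest, and cells given both agents read close to control. TGFβ raised *INHBA* by 2.09 ± 0.10 (SE), 4.26-fold (adjusted p = 1.89e-06), with changes of 1.93, 2.22 and 2.13 on the 3 slides. Galunisertib alone lowered it by a log2 change of -0.55 ± 0.10 (adjusted p = 0.00962). That smaller change did not pass without any one of the 3 replicates (-0.67 to -0.41) or after scaling to the array median (-0.49, adjusted p = 0.257). On all 12 PLC/PRF/5 arrays *INHBA* was not well above background. The promoter of *INHBA* is shown with those of *FSTL3*, *BMP4* and *GREM1*, since these 4 genes changed under galunisertib alone in SNU-449 and have a promoter entry in RefSeq (GRCh38.p14). Each sequence is the 250 bases before the annotated start, read 5′ to 3′ on the strand of the gene. Capitals mark CAGAC (or its reverse complement GTCTG), the core of a SMAD-binding element, and GGCGCC, a GC-rich motif of SMAD complexes. The *INHBA* window, at chr7:41703091-41703340 on the minus strand, holds neither and has a GC content of 42.8%.
INHBA: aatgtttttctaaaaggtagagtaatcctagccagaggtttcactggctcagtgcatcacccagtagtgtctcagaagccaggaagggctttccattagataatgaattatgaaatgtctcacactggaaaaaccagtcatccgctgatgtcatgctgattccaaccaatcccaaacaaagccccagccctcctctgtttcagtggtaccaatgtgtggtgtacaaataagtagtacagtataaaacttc

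*INHBB* and *INHBE* encode the βB and βE chains, the latter made mainly in liver. *INHBB* read between 4.24 and 4.68 on all 12 PLC/PRF/5 arrays. It did not pass the test for TGFβ (log2 change -0.13, 95% interval -0.29 to 0.02) or for galunisertib (0.08, -0.08 to 0.24). It was higher with both agents than with TGFβ alone by 0.28 ± 0.07 (adjusted p = 0.0103), a difference lost with quantile normalization (0.07, adjusted p = 0.534), after scaling to the array median, with both lines in the fit (adjusted p = 0.351) and without replicate 1 (0.23) or replicate 2 (0.27). In SNU-449 *INHBB* was well above background on 1 control array, no TGFβ array, 2 galunisertib arrays and all 3 arrays with both agents. The latter had a mean of -3.36 against -4.13, the floor, with TGFβ alone, a difference of 0.78 ± 0.28 that did not pass (adjusted p = 0.0858). For galunisertib against control the log2 change was 1.0 ± 0.28 (adjusted p = 0.0577). Both passed with both lines in the fit (adjusted p = 0.00987 and 0.00308) and with normexp background correction (adjusted p = 0.0101 and 0.0248).

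*INHBE* was measured only in PLC/PRF/5, since no SNU-449 array was well above background. It read -1.85, -2.10 and -2.10 in control cells, -1.02, -0.60 and -0.91 with TGFβ, -2.40, -2.31 and -2.55 with galunisertib, and -1.68, -2.08 and -2.42 with both. The TGFβ arrays were the 3 highest and did not overlap with any other group. TGFβ raised *INHBE* by 1.17 ± 0.18 (adjusted p = 0.00186), although without replicate 2 the rise of 1.01 did not pass. For galunisertib alone the log2 change was -0.40 (95% interval -0.79 to -0.01, adjusted p = 0.203).

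Follistatin-like 3 (*FSTL3*) and follistatin (*FST*) both bind activins. TGFβ raised *FSTL3* in both lines, from levels well above background. In SNU-449 it read 4.36, 3.91 and 4.55 in control cells, 5.38, 5.38 and 5.30 with TGFβ, 2.63, 2.76 and 2.22 with galunisertib, and 4.05, 4.16 and 3.57 with both. The galunisertib arrays were the lowest and the TGFβ arrays the highest, while the arrays with both agents overlapped with control. TGFβ raised it by 1.08 ± 0.20 (adjusted p = 0.00706), with 1.02, 1.46 and 0.75 on the slides. Galunisertib lowered it 3.33-fold, a log2 change of -1.74 ± 0.20 (adjusted p = 0.00105), with changes of -1.73, -1.15 and -2.32. The rise did not pass without replicate 1 (1.11) or replicate 2 (0.89), nor the fall without replicate 1 (-1.74). The PLC/PRF/5 levels of *FSTL3* were 1.10, 0.93 and 0.88 in control cells, 1.85, 2.01 and 1.83 with TGFβ, 1.06, 0.82 and 0.82 with galunisertib, and 0.66, 0.53 and 0.62 with both. TGFβ raised it by 0.93 ± 0.09 (adjusted p = 0.000175). Under galunisertib alone the change was -0.07, with a 95% interval of -0.28 to 0.14. The *FSTL3* window, at chr19:676142-676391 on the plus strand, has a GC content of 80.0% and holds 1 GGCGCC.
FSTL3: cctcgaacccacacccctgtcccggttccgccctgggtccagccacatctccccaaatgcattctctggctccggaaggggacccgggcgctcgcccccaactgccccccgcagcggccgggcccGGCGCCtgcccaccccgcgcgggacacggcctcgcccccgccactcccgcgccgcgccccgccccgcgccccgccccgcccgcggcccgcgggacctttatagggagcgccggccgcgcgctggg

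*FST* was read on every PLC/PRF/5 array and hardly at all in SNU-449. Its PLC/PRF/5 levels were 5.02, 5.06 and 5.07 in control cells, 5.78, 5.76 and 5.86 with TGFβ, 4.69, 4.64 and 4.77 with galunisertib, and 4.95, 4.80 and 4.85 with both. None of these 4 groups overlapped, with TGFβ highest and galunisertib lowest. TGFβ raised *FST* by 0.75 ± 0.07 (adjusted p = 8.64e-05) and galunisertib lowered it by a log2 change of -0.35 ± 0.07 (adjusted p = 0.0195). The latter did not pass without any one of the 3 replicates (-0.38 to -0.31), after scaling to the array median (-0.25, adjusted p = 0.618) or with normexp background correction (-0.32, adjusted p = 0.11). In SNU-449 the 3 TGFβ arrays were well above background, at -3.14, -3.19 and -3.02, and the other 9 were at the floor. They were at least 2.02-fold above control (measured means -3.12 and -4.13, adjusted p = 1.36e-05). These levels are close to the floor, and the call ended when the floor was doubled (0.04, adjusted p = 0.64) and with normexp background correction (0.23, adjusted p = 0.158). The TGFβ arrays averaged 11.5% of the 75th percentile, close to the doubled floor, and normexp added an offset (50) that shrinks changes of dim probes. Both settings would hide such a change, so neither can decide on it. The arrays at the floor do not vary, so the adjusted p of the reported fit does not measure their spread between cultures.

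The BMP ligand *BMP4* fell with TGFβ in SNU-449. It read -0.06, 0.37 and 0.27 in control cells, -1.18, -0.96 and -1.13 with TGFβ, 1.14, 1.05 and 1.00 with galunisertib, and 0.57, 0.75 and 0.89 with both. The 4 groups did not overlap, and their order was the reverse of that of *INHBA* for TGFβ, control and galunisertib. The log2 change was -1.28 ± 0.13 with TGFβ (adjusted p = 0.000153), with slide values from -1.40 to -1.12. With galunisertib it was 0.87 ± 0.13 (adjusted p = 0.00366), and this rise did not pass without any one of the 3 replicates (0.70 to 0.97). The PLC/PRF/5 levels of *BMP4* were 2.16, 1.99 and 2.02 in control cells, 2.14, 2.25 and 2.18 with TGFβ, 2.14, 1.88 and 1.91 with galunisertib, and 1.60, 1.58 and 1.51 with both. The first 3 groups overlapped or touched, and the arrays with both agents were the lowest. The changes under single agents were 0.14 for TGFβ (95% interval -0.05 to 0.32) and -0.08 for galunisertib (-0.27 to 0.11). RefSeq gives 3 windows for *BMP4*, and the one farthest upstream, at chr14:53955051-53955300 on the minus strand, holds 1 CAGAC and 1 GGCGCC.
BMP4: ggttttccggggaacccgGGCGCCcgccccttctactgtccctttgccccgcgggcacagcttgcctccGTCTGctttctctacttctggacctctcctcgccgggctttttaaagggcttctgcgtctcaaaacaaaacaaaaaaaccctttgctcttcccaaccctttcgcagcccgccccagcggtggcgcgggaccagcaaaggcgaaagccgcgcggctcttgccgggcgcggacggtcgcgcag

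*BMP6* responded to both agents in the same direction in PLC/PRF/5. It read 2.25, 2.33 and 2.28 in control cells, 2.93, 3.24 and 2.98 with TGFβ, 2.95, 2.93 and 2.80 with galunisertib, and 3.06, 3.06 and 2.90 with both. All 9 treated arrays were above the 3 controls, and the treated groups overlapped with each other. *BMP6* rose by 0.76 ± 0.09 with TGFβ (adjusted p = 0.000519) and by 0.60 ± 0.09 with galunisertib (adjusted p = 0.00634). The galunisertib rise did not pass without any one of the 3 replicates (0.56 to 0.65), after scaling to the array median (0.70, adjusted p = 0.0897) or with both lines in the fit (adjusted p = 0.108). In SNU-449 *BMP6* read -2.06, -2.17 and -2.21 in control cells and -1.15, -1.53 and -1.30 with TGFβ, a log2 change of 0.82 ± 0.28 that did not pass (adjusted p = 0.0971). It passed with both lines in the fit (adjusted p = 0.0117), with normexp background correction (0.44, adjusted p = 0.0346) and by the methods' t-test (adjusted p = 0.0344). One galunisertib array, replicate 3, read -3.28 where the other two read -1.97 and -2.15. No SNU-449 array read *BMP2*, a close relative of *BMP4*, well above background. Its PLC/PRF/5 levels ranged from -0.32 to 0.72, with a log2 change of -0.36 ± 0.11 for TGFβ (adjusted p = 0.0537) and 0.11 ± 0.11 for galunisertib (adjusted p = 0.595). The TGFβ change passed with quantile normalization (-0.38, adjusted p = 0.0412), with normexp background correction (-0.41, adjusted p = 0.0204), with both lines in the fit (adjusted p = 0.00829) and with the doubled floor (adjusted p = 0.0475).

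The secreted BMP antagonists gremlin 1 (*GREM1*) and noggin (*NOG*) were expressed in SNU-449. *GREM1* read 0.39, -0.23 and 0.16 in control cells, 1.07, 1.01 and 1.05 with TGFβ, -0.95, -1.12 and -2.23 with galunisertib, and -0.30, -0.93 and -0.58 with both. The TGFβ arrays were the highest and the galunisertib arrays the lowest, without overlap. Galunisertib lowered *GREM1* by a log2 change of -1.54 ± 0.31 (adjusted p = 0.0164). This fall did not pass without any one of the 3 replicates (-1.86 to -1.11) or after scaling to the array median (-1.48, adjusted p = 0.0508). For TGFβ the change was 0.94 ± 0.31 (adjusted p = 0.0833), whereas its dimmer probe gave 1.38 ± 0.32 and passed in a fit of 25677 probes (adjusted p = 0.0243). The mean of both probes rose by 1.16 (adjusted p = 0.0171). The TGFβ change of the brighter probe also passed with both lines in the fit (adjusted p = 0.00672) and with normexp background correction (0.73, adjusted p = 0.0293). No PLC/PRF/5 array read either probe well above background. The upstream of 2 *GREM1* windows, at chr15:32717754-32718003 on the plus strand, holds 2 CAGAC and 2 GGCGCC.
GREM1: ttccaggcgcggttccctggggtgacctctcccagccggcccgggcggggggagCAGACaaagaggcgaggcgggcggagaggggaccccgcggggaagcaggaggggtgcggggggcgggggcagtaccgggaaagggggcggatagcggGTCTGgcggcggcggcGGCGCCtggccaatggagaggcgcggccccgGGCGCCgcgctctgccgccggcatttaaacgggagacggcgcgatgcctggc

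The 7 genes with a promoter entry have 10 windows. Of these, 4 held GGCGCC (in *INHBB*, *FSTL3*, *BMP4* and *GREM1*), 4 held CAGAC (in *BMP4* and *GREM1*) and none held TGAGTCA, the AP-1 site, on either strand. Over 35116 promoter windows of the same length in RefSeq, 16.4% held GGCGCC, 38.0% held CAGAC and 4.2% held TGAGTCA. These matches describe the letters of the windows only.

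*NOG* had the widest range of the 10 genes across the SNU-449 treatments. It read -2.30, -2.31 and -2.03 in control cells, 0.14, 0.41 and 0.69 with TGFβ, -4.13, -3.97 and -4.07 with galunisertib, and -3.28, -2.68 and -4.13 with both. No galunisertib array was well above background, and 2 of the 3 arrays with both agents were. TGFβ raised *NOG* 6.18-fold, a log2 change of 2.63 ± 0.30 (adjusted p = 0.000334) with 2.44, 2.72 and 2.72 on the slides. Galunisertib lowered it at least 3.29-fold (measured means -2.22 and -4.06, adjusted p = 0.00618), and this did not pass without replicate 1 (-1.85, adjusted p = 0.134). Of the PLC/PRF/5 arrays, *NOG* was well above background on 2 control arrays and on 2 arrays with both agents, and no test was made within that line.

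**Figure D2:**
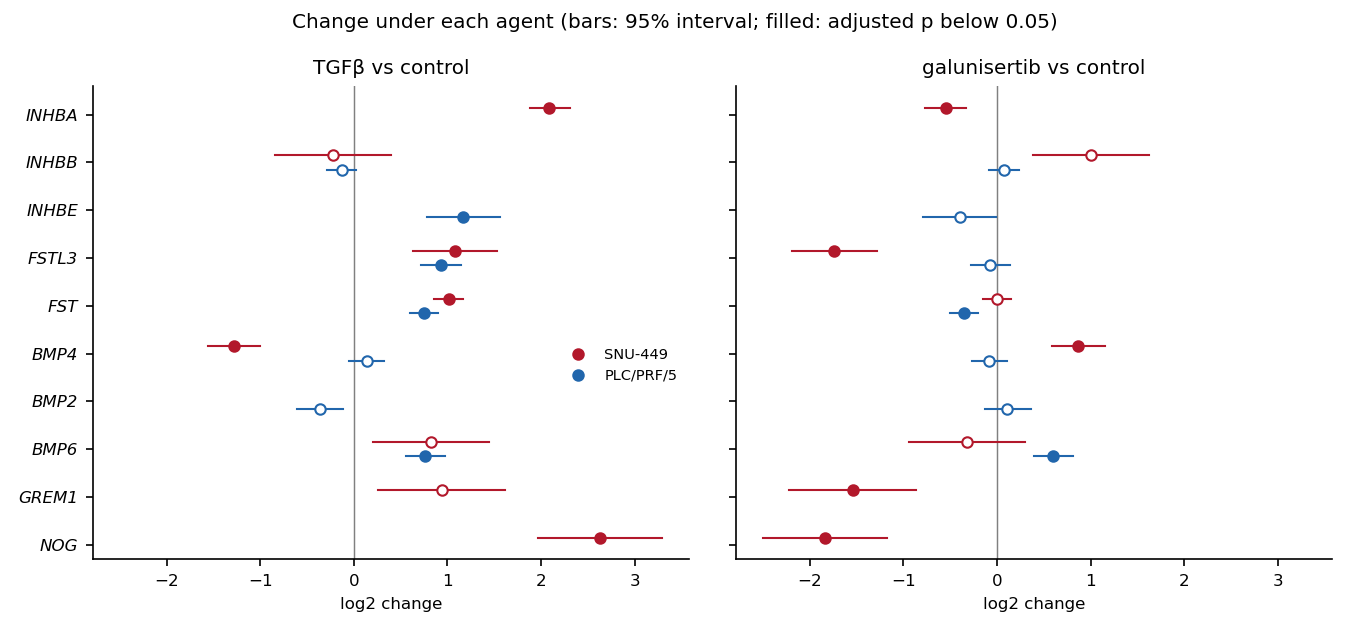
Log2 change (x axis) of each gene (y axis) under TGFβ (left) and galunisertib (right) against control, as points with 95% intervals, filled where the adjusted p was below 0.05 (SNU-449 red, PLC/PRF/5 blue). In SNU-449, *INHBA*, *FSTL3*, *GREM1* and *NOG* lie to the right of 0 under TGFβ and to the left under galunisertib, and *BMP4* lies the other way round. Genes without a point in a line were not tested there.

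When galunisertib was added to TGFβ in SNU-449, 6 of 8 genes tested changed against TGFβ alone, 5 lower and 1 higher, where 17.1% of all genes were called. *NOG* fell most, by a log2 change of -3.77 ± 0.30 (adjusted p = 1.92e-05, with 2 of 3 arrays with both agents well above background). *INHBA* fell by 2.25 on the log2 scale (adjusted p = 6.48e-07), *GREM1* fell by 1.65 (adjusted p = 0.00448) and *FSTL3* fell by 1.42 (adjusted p = 0.000869). *FST* was at least 1.85-fold lower (measured means -4.13 and -3.12, adjusted p = 8.45e-06), a call that ended with the doubled floor (-0.04) and with normexp background correction (-0.23, adjusted p = 0.136). As for TGFβ against control, neither setting can decide on so dim a change. *BMP4* rose by 1.83 ± 0.13 (adjusted p = 9.11e-06). Without replicate 2 the fall of *GREM1* did not pass (-1.50).

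The TGFβ change left under galunisertib, taken between cells with both agents and cells with galunisertib alone, passed for 1 of 8 genes in SNU-449, where 1.90% of all genes were called and 0.933% were higher. That gene was *FSTL3*, which rose by 1.39 ± 0.20 (adjusted p = 0.00949) with 1.42, 1.39 and 1.35 on the slides, although without replicate 1 (1.37) or replicate 2 (1.39) it did not pass, nor did it by the methods' t-test (adjusted p = 0.253). The 2 TGFβ changes of *FSTL3*, 1.08 without and 1.39 with galunisertib, differed by 0.31 with a 95% interval of -0.33 to 0.95 (adjusted p = 0.601). The TGFβ targets *SMAD7* (1.38 ± 0.13, adjusted p = 0.0013) and *PMEPA1* (2.77 ± 0.37, adjusted p = 0.0061) also rose between galunisertib alone and both agents. So did *SKIL* (2.08 ± 0.30, adjusted p = 0.00949), with 2 of 3 galunisertib arrays well above background. For *INHBA* the same comparison gave 0.39 ± 0.10 and did not pass (adjusted p = 0.0787), whereas it passed with both lines in the fit, normexp background correction or the doubled floor. The TGFβ change itself was smaller with galunisertib for *INHBA* (difference -1.70 ± 0.14, adjusted p = 0.00018), for *NOG* (-1.93 ± 0.42, adjusted p = 0.0418) and for *FST* (-1.02 ± 0.10, adjusted p = 0.000484), and less negative for *BMP4* (0.96 ± 0.18, adjusted p = 0.0236). Those 4 of 8 genes stand against 2.63% of all genes, with 3 lower and 1 higher. After scaling to the array median *BMP4* did not pass (0.74, adjusted p = 0.303), which left 3 lower and 0 higher, and the normalized table of the authors gave 1 lower and 1 higher. Without replicate 3 the *INHBA* difference was -1.62 and did not pass, and those of *FST*, *BMP4* and *NOG* did not pass without any one of the replicates (-1.05 to -0.97, 0.79 to 1.16 and -2.19 to -1.51). With the replicate number as a block the *NOG* difference did not pass (adjusted p = 0.0754), nor did it with the floor lowered to 0.5 times its value (-1.68, adjusted p = 0.169) or with no filter on dim probes (adjusted p = 0.12). The *FST* difference did not pass with the doubled floor (-0.04) or with normexp background correction (-0.33, adjusted p = 0.266), settings that would hide so dim a change. *GREM1* differed by -0.11 between both conditions, with a 95% interval of -1.07 to 0.85.

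Adding galunisertib to TGFβ in PLC/PRF/5 changed 6 of 7 genes against TGFβ alone, 4 lower and 2 higher, where 39.1% of all genes were called. *FSTL3* fell by 1.29 on the log2 scale (adjusted p = 6.63e-06), *INHBE* fell by 1.21 (adjusted p = 0.000454), *FST* fell by 0.93 (adjusted p = 7.42e-06) and *BMP4* fell by 0.63 (adjusted p = 0.000303). *BMP2* rose by 0.74 ± 0.11 (adjusted p = 0.000552), and *INHBB* rose as given above. Scaling to the array median left 3 lower and 1 higher, without *BMP4* (-0.45, adjusted p = 0.0924) and *INHBB* (0.46, adjusted p = 0.0812), and quantile normalization left 4 lower and 1 higher. *BMP6* did not pass, with a log2 change of -0.04 (95% interval -0.25 to 0.16).

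Against galunisertib alone, the combination lowered *BMP4* in PLC/PRF/5 by a log2 change of -0.41 ± 0.09 (adjusted p = 0.0218), 1 of 7 genes where 8.54% of all genes were called and 4.96% were lower. That change did not pass without any one of the 3 replicates (-0.47 to -0.35) or after scaling to the array median (-0.30, adjusted p = 0.454). The TGFβ change differed with galunisertib for 5 of 7 genes in this line, against 8.77% of all genes. It was lower for *FSTL3* (-1.23 ± 0.13, adjusted p = 0.000791), *BMP6* (-0.65 ± 0.13, adjusted p = 0.0165), *FST* (-0.58 ± 0.10, adjusted p = 0.00708) and *BMP4* (-0.55 ± 0.12, adjusted p = 0.0215), and higher for *BMP2* (0.62 ± 0.16, adjusted p = 0.0352). With the replicate number as a block *BMP2* did not pass (adjusted p = 0.0585), nor did it with normexp background correction (0.52, adjusted p = 0.0596), and *BMP6* did not pass with both lines in the fit (adjusted p = 0.208). Scaling to the array median left *FSTL3* alone (0 higher and 1 lower), with 127 of all genes called against 1462 in the reported fit. Without replicate 2 the *FSTL3* difference was -1.15 and without replicate 3 it was -1.26, and neither passed. The other 4 did not pass without any one of the replicates, with values of -0.70 to -0.58 for *BMP6*, -0.63 to -0.52 for *FST*, -0.56 to -0.54 for *BMP4* and 0.51 to 0.71 for *BMP2*. For *INHBE* the difference was -0.81 (95% interval -1.36 to -0.26, adjusted p = 0.0688), and it passed with both lines in the fit (adjusted p = 0.0125).

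**Figure D3:**
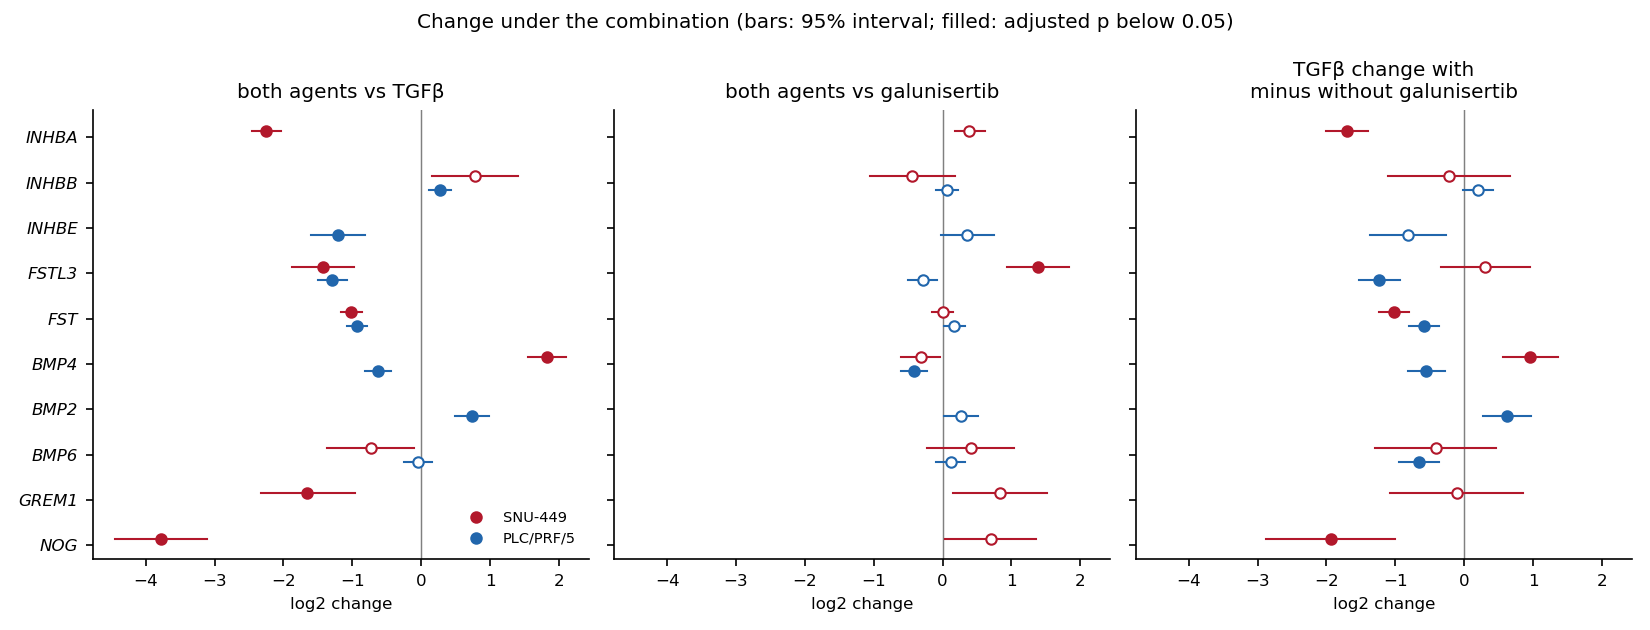
Log2 change (x axis) of each gene (y axis) for cells with both agents against TGFβ alone (left) and against galunisertib alone (middle), and the TGFβ change with minus without galunisertib (right), as points with 95% intervals, filled where the adjusted p was below 0.05 (SNU-449 red, PLC/PRF/5 blue). *FSTL3* in SNU-449 is filled at 1.39 in the middle panel, while its PLC/PRF/5 value in that panel is -0.29. The lines lie on opposite sides of 0 for *BMP4* in the left panel (1.83 and -0.63) and in the right panel (0.96 and -0.55).

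Whether a response differed between the lines was tested over all 24 arrays. The galunisertib change differed for 6 of 10 genes, where 5.89% of all genes were called, and the TGFβ change for 4 of 10, where 8.63% were. The galunisertib differences were 2 higher and 4 lower in SNU-449, against 0 and 2 after scaling to the array median and 1 and 1 in the normalized table of the authors. The TGFβ differences were 2 higher and 2 lower, against 2 and 1 in that table. Under galunisertib the fall of *FSTL3* was greater in SNU-449, by a log2 difference of -1.67 ± 0.23 (adjusted p = 0.000161). Its TGFβ change differed by 0.15 between the lines, with a 95% interval of -0.33 to 0.62 (adjusted p = 0.797). *BMP4* differed for both agents, by 0.95 ± 0.15 for galunisertib (adjusted p = 0.000683; 1.01 and not passed without replicate 3, and 0.91 with adjusted p = 0.0957 after scaling to the array median) and by -1.42 ± 0.15 for TGFβ (adjusted p = 3.12e-06). *BMP6* differed by 0.05 for TGFβ (95% interval -0.58 to 0.69) and by -0.93 for galunisertib (-1.56 to -0.29, adjusted p = 0.0858). The remaining differences called rest on a line in which the gene was at or near the floor, since *INHBA* and *GREM1* were not measured in PLC/PRF/5, *INHBE* was not measured in SNU-449, *NOG* was near background in PLC/PRF/5 and *FST* was at the floor in untreated SNU-449. Arrays set to the floor do not vary, so the SE and adjusted p of these differences may understate the spread between cultures.

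The pathway around these genes was read from 4 lists, of 14 receptors and co-receptors, 20 other ligands, 13 other antagonists (11 on the array by name) and 10 SMADs and targets of BMP signalling. In SNU-449, where TGFβ changed 10.5% of all genes, it raised 2 of the 7 receptors tested, namely the BMP type II receptor *BMPR2* (1.24 ± 0.13, adjusted p = 0.000223) and the activin type II receptor *ACVR2B* (0.80 ± 0.22, adjusted p = 0.044). Of 12 other ligands tested, 3 rose and 2 fell. The Nodal inhibitor *LEFTY2* rose by 3.04 ± 0.22 (adjusted p = 1.76e-05) and the BMP-type ligand *GDF6* by 2.61 ± 0.23 (adjusted p = 7.71e-05). *LEFTY1*, whose sequence is close to that of *LEFTY2*, also rose (adjusted p = 0.000282), with no control array well above background, and signal shared between both cannot be told apart. *BMP8B* fell by 1.74 (adjusted p = 0.00611) and *BMP5* fell by 0.46 (adjusted p = 0.00436). Of 7 other antagonists tested, 2 rose and none fell. They were the pseudoreceptor *BAMBI* (0.97 ± 0.10, adjusted p = 0.000183) and *DAND5* (0.94 ± 0.23, adjusted p = 0.0254), a secreted antagonist of Nodal and BMPs. The median log2 change was 0.39 over those 7 genes and 0.02 over all genes tested.

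Among the SMADs and BMP targets, *ID1* and *ID3* moved in opposite directions in the lines. In SNU-449 TGFβ raised *ID1* by 1.72 ± 0.14 (adjusted p = 3.61e-05) and *ID3* by 1.08 ± 0.20 (adjusted p = 0.00574), inhibitors of DNA binding, with *SMAD7* (0.65 ± 0.13, adjusted p = 0.0112), an inhibitory SMAD. With *SMAD6*, another inhibitory SMAD (0.47 ± 0.11, adjusted p = 0.0176), 4 of 8 genes of this list rose and none fell. In PLC/PRF/5 *ID3* fell by 1.54 (adjusted p = 1.2e-06), *ID1* fell by 1.0 (adjusted p = 0.0007), and *ID2* fell by 0.67 (adjusted p = 0.00191), so that 3 of 9 genes tested fell and 1 rose. The gene that rose was *SMAD7* (0.80 ± 0.11, adjusted p = 0.000892). The TGFβ change differed between the lines by 2.72 ± 0.19 for *ID1* (adjusted p = 1.17e-08) and 2.62 ± 0.21 for *ID3* (adjusted p = 1.02e-07). The counts in PLC/PRF/5 stand against 13.5% of all genes. Of the receptors in that line, *BMPR2* (0.90 ± 0.14, adjusted p = 0.00198) and *ACVR2B* (0.42 ± 0.12, adjusted p = 0.0365) rose, and the activin type I receptor *ACVR1B* fell (-1.03 ± 0.26, adjusted p = 0.0273), 3 of 8 tested. *BMPR2* was dim in PLC/PRF/5, where not every array with galunisertib read it well above background. *GDF11* was the one ligand of 8 that changed (-0.43 ± 0.11, adjusted p = 0.0243), and *BAMBI* was the one antagonist of 5 (0.47 ± 0.13, adjusted p = 0.0368).

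**Figure D4:**
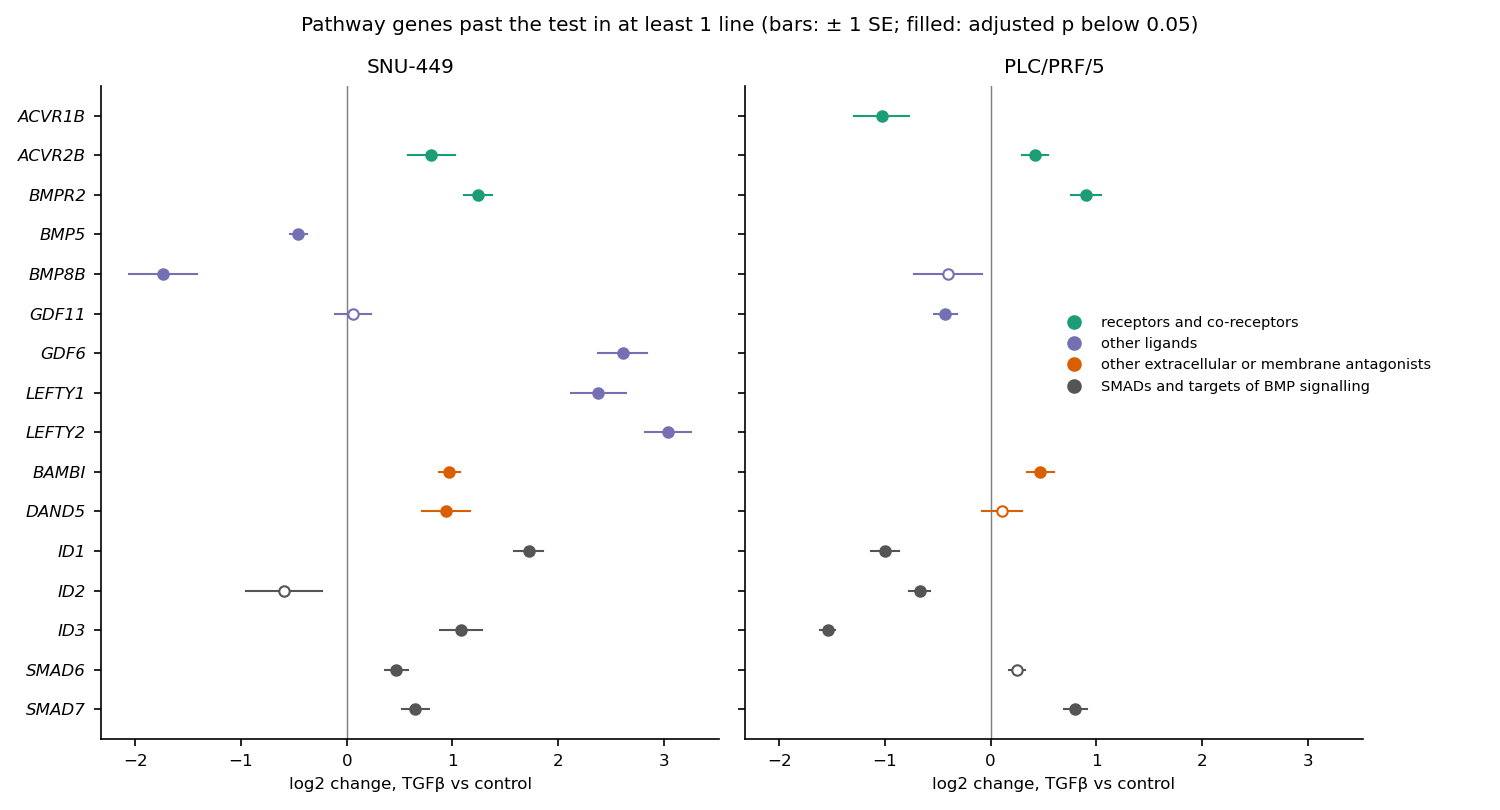
Log2 change under TGFβ (x axis) in SNU-449 (left) and PLC/PRF/5 (right) of the listed pathway genes (y axis) that passed the test in at least 1 line, as points ± 1 SE, coloured by list and filled where the adjusted p was below 0.05. *ID1* and *ID3* lie to the right of 0 in SNU-449 (1.72 and 1.08) and to the left in PLC/PRF/5 (-1.0 and -1.54), while *BMPR2* (dim in PLC/PRF/5) and *SMAD7* lie to the right in both. Genes without a point were not tested in that line.

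With galunisertib alone, which changed 7.47% of all genes in SNU-449, none of the 7 receptors tested there changed by limma at an adjusted p of 0.05. Of the other ligands *GDF6* (-2.30 ± 0.23, adjusted p = 0.00056) and *INHBC*, the activin βC chain (-1.62 ± 0.39, adjusted p = 0.0346), fell, each with 1 of 3 galunisertib arrays well above background, and *BMP5* rose (0.33 ± 0.08, adjusted p = 0.0333), 3 of 12. *DAND5* fell (-1.36 ± 0.23, adjusted p = 0.00728), 1 of 7 antagonists. *SMAD7* fell (-1.90 ± 0.13, adjusted p = 0.000148), as did *SMAD6* (-0.43 ± 0.11, adjusted p = 0.0396), 2 of 8 genes. For PLC/PRF/5, with 5.43% of all genes called, galunisertib lowered *SMAD7* (-0.44 ± 0.11, adjusted p = 0.0408) and *BMPR2* (adjusted p = 0.0234), the latter with no galunisertib array well above background.

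When galunisertib was added to TGFβ in SNU-449, where 17.1% of all genes were called, it lowered 1 of 7 receptors, namely *BMPR2* (-1.38 ± 0.13, adjusted p = 6.74e-05), and 3 of 12 ligands, with 2 higher. The ligands with the largest changes were *GDF6* (-4.50 ± 0.23, adjusted p = 1.48e-06), *LEFTY2* (-2.88 ± 0.22, adjusted p = 1.59e-05) and *LEFTY1*, which was well above background on 1 of 3 arrays with both agents (adjusted p = 0.000194). Of the antagonists *DAND5* (-1.13 ± 0.23, adjusted p = 0.00687) and *BAMBI* (-0.71 ± 0.10, adjusted p = 0.000779) fell, 2 of 7. *ID3* (-1.91 ± 0.20, adjusted p = 0.000109), *ID1* (-1.55 ± 0.14, adjusted p = 4.07e-05) and *SMAD7* (-1.16 ± 0.13, adjusted p = 0.00022) were among the 4 of 8 SMADs and BMP targets that fell.

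In PLC/PRF/5, where 39.1% of all genes were called in this comparison, *ID1* (1.25 ± 0.13, adjusted p = 5.81e-05) and *ID3* (1.08 ± 0.07, adjusted p = 4.23e-06) instead rose, and *SMAD7* fell (-1.54 ± 0.11, adjusted p = 4.6e-06), within a list of which 4 of 9 rose and 3 fell. *BMPR2* fell (adjusted p = 2.64e-05) with 2 of 3 arrays with both agents well above background, and the co-receptor *TGFBR3* rose (0.76 ± 0.19, adjusted p = 0.00992). The inhibin α chain *INHA* (-0.55 ± 0.12, adjusted p = 0.00459), *AMH* (-0.50 ± 0.13, adjusted p = 0.012) and *BMP8A* (-0.37 ± 0.13, adjusted p = 0.0429) were the 3 of 8 ligands that fell. Of 5 antagonists 3 fell, namely the BMP-binding protein *CHRD* (-0.66 ± 0.11, adjusted p = 0.00123), *DAND5* (-0.63 ± 0.19, adjusted p = 0.0248) and *BAMBI* (-0.37 ± 0.13, adjusted p = 0.0466).

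Genes whose levels followed each member closely over the 12 SNU-449 arrays were taken by Pearson's r among the 13978 other genes well above background on all 12 (13979 for *NOG*). *INHBA* was followed by *ULK1* (r = 0.993) and *FURIN* (0.993), the latter a protease that cleaves precursors of this family. *FSTL3* was followed by *DNAJB2* (0.981) and *PMEPA1* (0.977). *BMP4* was followed by *SLC16A7* (0.995), *FRMD4A* (0.993) and *SLC7A2* (0.993), *NOG* by *NCKAP5* (0.995), *SIPA1L2* (0.989) and *CGB3* (0.985), and *GREM1* by *FRMD6* (0.972), *F3* (0.972) and *IFIH1* (0.971). The 12 arrays share 4 treatments and 3 slides, so these values describe a common pattern over 4 groups.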

How the data were processed

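Cells of 2 HCC lines were profiled on one-colour Agilent arrays. The files deposited per array came from Agilent Feature Extraction 10.7.3.1 (per the submitters' notes), and their processed signal is a linear intensity after background subtraction with no normalization across arrays. A second deposited file holds normalized log2 values of 30913 probes as computed by the authors. Differences between arrays in that table had a slope of 1 and a correlation of 0.9994 with those of the scanner values over 19267 probes, each probe being centred on its median. These probes were well above background on all 24 arrays, and dimmer ones were not compared in this way. For the dim *FST* in SNU-449, the TGFβ change with minus without galunisertib was -2.69 in that table and -1.02 in the reported fit. The table served as an alternative. Every column used has a sample.

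Spots of controls and 111 to 216 outlier spots per array were left out, and no spot was saturated. Spots of a probe were averaged, divided by the 75th percentile of the array, raised to the floor (each array's weakest signal well above background, taken at its median across arrays) and converted to log2. Of 58201 probes, 31104 were named by their accession in RefSeq, 10719 through LNCipedia and 16378 had no name. Testing required that 1 or more groups had all arrays well above background, and the brightest probe stood for its gene. *GREM1* has 2 probes and the other members 1.

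Comparisons within a line were fitted over its 12 arrays (16072 genes in SNU-449, 16663 in PLC/PRF/5) and those between lines over all 24 (17853 genes), with limma 3.58.1 in R 4.3.3. A gene was called at a Benjamini-Hochberg adjusted p below 0.05 over all genes. The limits of the study's figure legends (a fold above 2 and an unadjusted P below 0.001) are an alternative. So is the t-test of its methods, run with pooled variance and without their random variance model. The study heads its lists of genes changed by galunisertib with a looser P limit, which was not used here. The members and lists were chosen with earlier results of these data known, and all members are reported. In each list and comparison the called genes with the 3 largest changes were to be named (given for TGFβ, for galunisertib and for both agents against TGFβ), and for members called under galunisertib in SNU-449 the 3 most alike genes. *BMP8B*, *BMP5*, *SMAD6* and *ID2*, as called for TGFβ, fall outside that rule and were named after their values were seen. Some genes are not reported here, and the antagonist list was counted without them. Only 3 arrays per group limit the precision, and the steps were tested on simulated data.

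Samples of one replicate number deviated together, with every pair at or above 0.10, in 3 comparisons. These were TGFβ against control in PLC/PRF/5 (0.17 to 0.31) and in SNU-449 (0.13 to 0.22), and in the latter line both agents against TGFβ (0.10 to 0.27). The pairing is shared with the slide and cannot be told apart from it. Normexp (offset 50) used the median foreground and background signals. An added offset shrinks log2 changes of dim probes, so a call lost with normexp cannot decide whether a dim gene changed. Promoter sequences are those of RefSeq (GRCh38.p14), used for 7 members. *INHBE*, *NOG* and *BMP2* had no entry.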

Additional observations from a re-analysis of the deposited data

Results flagged for a closer look

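The following 10 changes differed between SNU-449 and PLC/PRF/5 in a test of the difference itself (limma over 24 arrays, SNU-449 minus PLC/PRF/5). For galunisertib the log2 differences were -1.67 for *FSTL3* (adjusted p = 0.000161), 0.95 for *BMP4* (0.000683), -1.54 for *GREM1* (0.00641), -0.55 for *INHBA* (0.00263), -1.38 for *NOG* (0.017) and 0.35 for *FST* (0.0189). For TGFβ they were 2.09 for *INHBA* (adjusted p = 7.85e-11), 3.26 for *NOG* (1.92e-06), -1.42 for *BMP4* (3.12e-06) and -1.17 for *INHBE* (0.000452).

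*FSTL3* and *BMP4* were well above background on all 24 arrays. The differences of *INHBA*, *GREM1* and *INHBE* equal the change in the line that expressed the gene, because the other line stayed at or near the floor. Their adjusted p rests in part on arrays set to the floor, which do not vary. The *FST* difference for galunisertib did not pass with the floor at 0.5 times its value (0.55, adjusted p = 0.268), nor did that of *NOG* (-1.53, adjusted p = 0.0695) or the TGFβ difference of *INHBE* (-1.15, adjusted p = 0.0789). With normexp background correction the galunisertib differences of *INHBA* (-0.38, adjusted p = 0.275), *NOG* (-0.47, adjusted p = 0.179) and *FST* (0.43, adjusted p = 0.1) did not pass. After scaling to the array median those of *INHBA* (adjusted p = 0.341), *GREM1* (0.0603), *BMP4* (0.0957) and *FST* (0.924) did not pass. In the normalized table of the authors those of *INHBA* (adjusted p = 0.75), *GREM1* (0.14), *NOG* (0.43) and *FST* (0.436) did not pass, nor did the TGFβ difference of *INHBE* (0.509). Without any one of the replicates, the galunisertib differences of *FST* (0.31 to 0.38) and *GREM1* (-1.86 to -1.11) did not pass. That of *INHBA* did not pass without replicate 1 (-0.41) or 3 (-0.57), that of *NOG* without replicate 1 (-1.35) or 2 (-1.53), that of *BMP4* without replicate 3 (1.01), and the TGFβ difference of *INHBE* without replicate 2 (-1.01).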

How the results depend on the processing

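The 59 called changes of members kept their direction in all 835 values under alternatives, and 716 of these also passed, while 119 did not. Scaling to the array median shifted the median of all genes by -0.34 to 0.17 and quantile normalization by -0.04 to 0.03. The array median is the signal of a dim probe, and the part of its noise in the calls lost was not tested. Signal near the floor and 3 arrays per group limit what can be said of the smaller changes.

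Members called changed by over 1.5 times as follows. With the filter that keeps a probe only if all arrays of the fit read it well above background, 3 were called for TGFβ in SNU-449 (5 otherwise), 2 for its difference with galunisertib there, 3 between untreated lines, and 2 and 1 for the line differences under galunisertib and TGFβ. With the limits of the figure legends the counts were 3 for galunisertib in SNU-449 and, in PLC/PRF/5, 1 for TGFβ, 0 for galunisertib, 2 and 0 for both agents against TGFβ and against galunisertib and 1 for the TGFβ difference, with 3 for the line difference under galunisertib. Scaling to the array median gave 3 for galunisertib in SNU-449, 2 for the line difference under it and, in PLC/PRF/5, 0 for galunisertib, 0 for both agents against it and 1 for the TGFβ difference. The methods' t-test, without their random variance model, gave 1 for galunisertib in each line and 0 for both agents against galunisertib in each. At the limits of the figure legends that t-test gave 1 and 0 for galunisertib in SNU-449 and PLC/PRF/5, 0 and 0 for both agents against it, and in PLC/PRF/5 0 for TGFβ and 1 for both agents against TGFβ. For both agents against galunisertib in SNU-449, 3 were called with both lines in the fit, 2 with normexp and 2 with the doubled floor, an alternative chosen after seeing the data. In PLC/PRF/5 normexp gave 2 for that comparison and 1 for galunisertib, and the fit of both lines gave 1 for galunisertib. The authors' table gave 2 for the TGFβ difference in SNU-449 and 2 for the line difference under galunisertib. Over all genes, scaling to the array median called 238 for galunisertib in SNU-449 and 197 for the line difference, against 1200 and 1052. Its PLC/PRF/5 counts were 88, 138 and 127, against 905, 1423 and 1462. The filter on all arrays called 1565, 337, 8970, 629 and 827, against 1688, 422, 12253, 1052 and 1541. The authors' table called 312 and 520. For both agents against galunisertib in SNU-449, the 3 alternatives above called 1200, 590 and 470, against 305. The cause was not tested.

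Leaving out one replicate left 4 to 5 members called for TGFβ, 0 to 2 for galunisertib, 5 to 7 and 0 to 1 for both agents against TGFβ and against galunisertib and 0 to 1 for the TGFβ difference in SNU-449. In PLC/PRF/5 these were 3 to 4, 0 to 0, 5 to 6, 0 to 0 and 0 to 1. Between the lines they were 10 to 10 for control cells, 2 to 3 for galunisertib and 3 to 4 for TGFβ. Over all genes, in the same order, SNU-449 kept 561 to 793, 148 to 286, 1053 to 1864, 30 to 74 and 45 to 100. All replicates gave 1688, 1200, 2755, 305 and 422 there. PLC/PRF/5 kept 455 to 908, 2 to 50, 3565 to 4355, 4 to 40 and 18 to 165. All replicates gave 2247, 905, 6519, 1423 and 1462 in that line. Between the lines 11055 to 11484, 305 to 594 and 608 to 1012 remained, against 12253, 1052 and 1541. With the replicate number as a block, 3 of the 4 TGFβ differences in SNU-449 and 4 of the 5 in PLC/PRF/5 passed, without *NOG* (adjusted p = 0.0754) and *BMP2* (0.0585), and no other call of a member changed.

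None of the values that changed sign passed in the reported fit. In SNU-449 *BMP6* ranged over the left-out replicates from -0.53 to 0.05 for galunisertib and from -0.07 to 0.64 for both agents against it, with the change of sign without replicate 3. The TGFβ differences there were -0.55 to 0.36 for *GREM1* over the left-out replicates (0.36 without replicate 2) and 0.02, 0.42 and 0.08 for *INHBB* with normexp, the authors' table and the floor at 0.5 times its value. In PLC/PRF/5 galunisertib gave 0 for *INHBB* with quantile normalization and 0.02 and 0.03 for *BMP4* and *FSTL3* with the array median. Both agents gave 0.13 (array median) and -0.13 to 0.03 over the left-out replicates (0.03 without replicate 2) for *BMP6* against TGFβ, and -0.01 (normexp) and -0.02 (quantile) for *INHBB* against galunisertib. Line differences were 0.04 (normexp) and 0 (authors' table) for *BMP2* under galunisertib. Under TGFβ they were 0.13 (doubled floor) and -0.20 to 0.12 over the left-out replicates (0.12 without replicate 1) for *INHBB*, -0.35 (normexp), -0.01 (quantile) and -0.04 to 0.22 over the left-out replicates (-0.04 without replicate 1, -0.02 without replicate 3) for *BMP6*, and -0.56 (normexp, adjusted p = 0.0206) and -0.71 (doubled floor, adjusted p = 1.66e-07) for *FST*, which was reported at 0.26 (adjusted p = 0.0639) and passed with that sign with quantile normalization (0.41, adjusted p = 0.0142), the floor at 0.5 times its value (0.93, 0.0326) and no filter on dim probes (0.26, 0.0122), so that its direction depends on the floor and background correction.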
